A study of Homo sapiens with 3 samples.

Results

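The proteasome is the protease that degrades ubiquitin-tagged proteins, and its genes are described here in spheroids of C28/I2 cells, human chondrocytes made immortal by the large T antigen of a virus. The members are the rows of the deposited table whose symbol is PSM, a letter from A to G and digits only. They number 48 of 19215 genes. RNA sequencing gave 1 group of 3 spheroid libraries, in which cells grown as aggregates received 0.5% DMSO, a solvent, for 48 h. Monolayer cultures of the line enter through the fold changes and p-values of the authors' deposited table, where a positive value means higher in spheroids. The sources used here do not give the treatment of the monolayers, and single monolayer libraries were not used here. Nothing says that the 3 spheroid libraries came from separate cultures, so the p-values may measure technical spread only. The line is a model of chondrocytes with limits of its own: SOX9, the chondrocyte transcription factor, was at 6.66, 6.66 and 6.81 FPKM, COL2A1, the main cartilage collagen, was between 0.01 and 0.03 FPKM, and 6 of 8 chondrocyte markers averaged under 1 FPKM.

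The 20S core of the proteasome is a barrel of stacked rings: alpha rings gate the entrance, and beta rings inside carry the proteolytic sites. The 19S regulatory particle binds ubiquitinated proteins, unfolds them with a ring of ATPases and feeds them into the core. In cells exposed to interferon gamma, the catalytic subunits beta1, beta2 and beta5 are replaced in new particles by beta1i, beta2i and beta5i, which makes the immunoproteasome, a source of peptides for MHC class I. The activator PA28, made of the products of PSME1 and PSME2, can take the place of the 19S particle and is induced by the same cytokine.

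Regulatory sequence is shown for the members whose promoter window holds the core of the interferon response element, because several genes of the immunoproteasome and PA28 are among them. RefSeq promoter windows (GRCh38.p14, 250 bases before to 50 after a gene start) were at hand for 42 of the 48 members. For 8 members there was more than 1 window, and a gene counted if any of its windows held a match. Both strands were searched for GAAANNGAA, the core of an interferon-stimulated response element, for TTCNNNGAA, the gamma-activated site, and for TGACNNNGC, the core of the antioxidant response element that the transcription factor NRF1 also binds. No sites of different motifs overlapped in a member's window. Each site below is shown in 30 bases of the gene's own strand, with the GAAANNGAA match or its reverse complement in capitals.
PSMB10, beta2i, chr16:67936852-67936881, minus strand: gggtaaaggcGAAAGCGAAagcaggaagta
PSMB8, beta5i, chr6:32844031-32844060, minus strand: atctgtggctTTCGCTTTCacttcctcctc
PSME1, PA28 alpha, chr14:24136190-24136219, plus strand: ccctaccgctTTCGCTTTCccttcgcggtg
PSME2, PA28 beta, chr14:24146619-24146648, minus strand: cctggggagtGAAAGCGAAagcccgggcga
PSMG4, a core assembly chaperone, chr6:3258904-3258933, plus strand: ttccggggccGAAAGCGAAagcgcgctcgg
PSMB4, beta7, chr1:151399495-151399524, plus strand: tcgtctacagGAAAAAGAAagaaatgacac
PSMC2, a 19S ATPase, chr7:103347626-103347655, plus strand: gtggggaaggGAAAGGGAAgacaccaccgg
PSMA4, alpha3, chr15:78540155-78540184, plus strand: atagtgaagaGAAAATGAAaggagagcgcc

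These 8 members are 19.05% of the 42 with a window, against 9.86% of the 27305 genes in the promoter table. In windows that end at the start they were 5 members, or 11.9%, against 8.41% of all genes. In PSMB10, PSMB8, PSME1, PSME2 and PSMG4 the matched letters were the same, GAAAGCGAA or its reverse complement. The match began 21 bases before the start in PSMB10, 3 before in PSMB8, 28 before in PSME2 and 33 before in PSMG4, and 7 bases after the start in PSME1. The start meant is that of the window with the match, and PSMB8 had a further window without one. PSMB9, which encodes beta1i, had no match in its window. Its neighbour on the opposite strand, the peptide transporter gene TAP1, held a pair of overlapping matches, the nearer of which ended 355 bases before the start of PSMB9 and so outside the PSMB9 window. The gamma-activated site was found in 8 members (19.05%, against 9.38% of all genes), among them PSMB8 and PSMB5, and the antioxidant response element core in 15 (35.7%, against 16.1%), among them PSMB9, PSME1, PSME2 and PSMG1. A match is only a run of letters, and binding was not measured.
The 250 bases before the start are given for both genes with the highest fold change, with matches to any of the motifs in capitals.
PSMB10, chr16:67936851-67937100, minus strand: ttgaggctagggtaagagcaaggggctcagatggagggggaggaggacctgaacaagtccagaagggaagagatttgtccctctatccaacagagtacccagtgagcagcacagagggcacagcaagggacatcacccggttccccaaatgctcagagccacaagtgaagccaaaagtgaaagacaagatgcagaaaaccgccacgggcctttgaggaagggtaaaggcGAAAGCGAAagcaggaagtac
PSMB9, chr6:32853942-32854191, plus strand: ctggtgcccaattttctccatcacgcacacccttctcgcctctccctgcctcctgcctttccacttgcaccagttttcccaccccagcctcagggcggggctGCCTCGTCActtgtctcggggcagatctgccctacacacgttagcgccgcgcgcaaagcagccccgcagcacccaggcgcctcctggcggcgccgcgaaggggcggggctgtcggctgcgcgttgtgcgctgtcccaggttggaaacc

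Between culture forms, the genes of the immunoproteasome rose in spheroids while most constitutive proteasome genes moved little. A gene was called where its adjusted p was under 0.05 and its log2 fold change was 1 or more in size. Of the 46 members with a fold change in the authors' deposited table, 4 were higher and 1 was lower by this rule, and 41 were not called. Among all 18467 tested genes, 11.5% were called higher and 9.34% lower. The members called higher were PSMB9, PSMB10, PSMB8 and PSME1, and the member called lower was PSMG1, a chaperone of core assembly. Without the minimum fold change, 8 members were higher and 14 lower, against 26.0% and 24.5% of all tested genes. The median log2 fold change of the 46 members was -0.10 in the authors' deposited table, beside 0.04 over all tested genes. The median of its absolute value was 0.21 for the members and 0.64 for all tested genes.

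**Figure D1:**
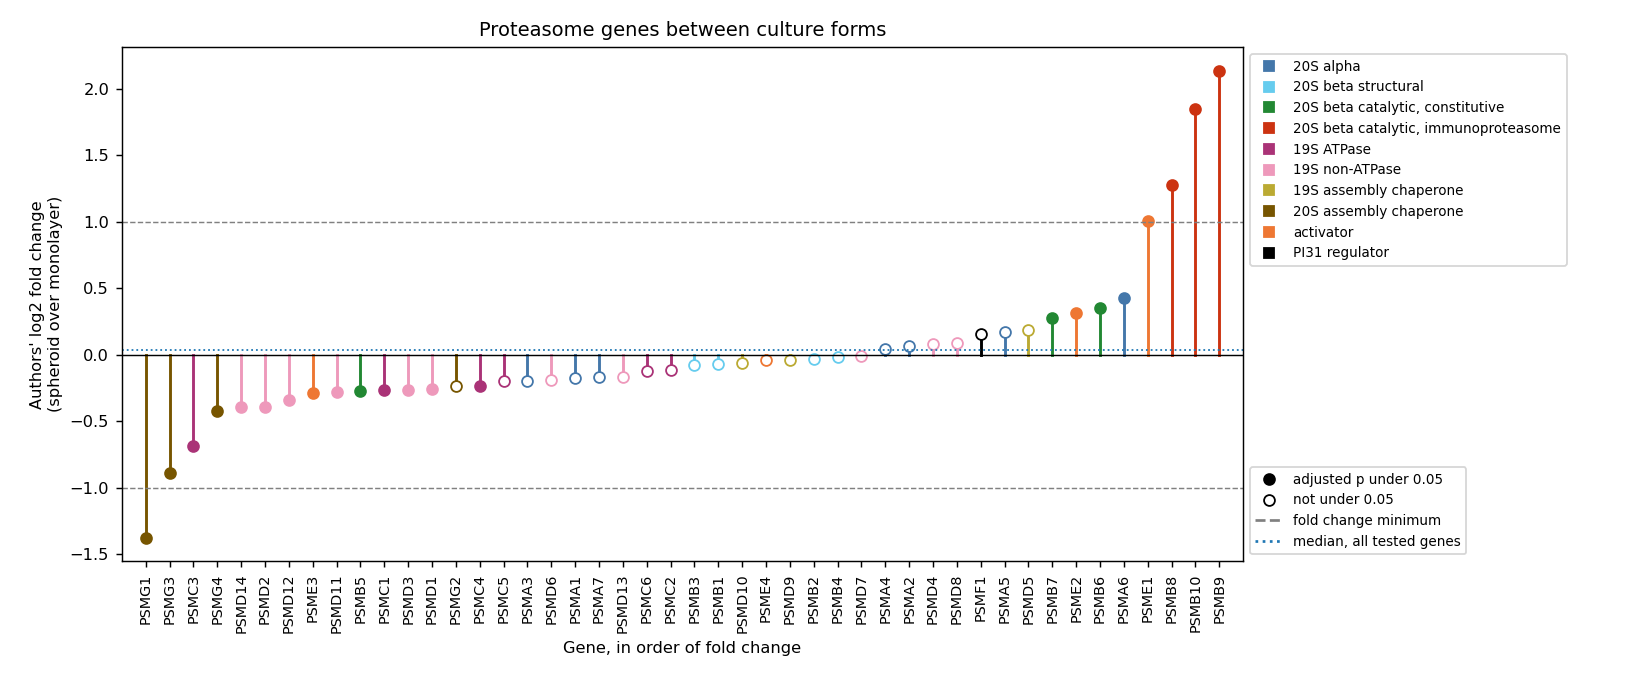
Log2 fold changes (spheroid over monolayer) of the 46 tested proteasome genes from the authors' deposited table, in rising order, each stem coloured by the gene's role. Filled points have an adjusted p under 0.05; PSMB9, PSMB10, PSMB8 and PSME1 reach the upper dashed line at 1, PSMG1 alone passes the lower one at -1, and the dotted line is the median of all tested genes.

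Of the catalytic immunoproteasome genes, 3 of 3 were called higher, against 11.5% of all tested genes. Their median log2 fold change was 1.85 in the authors' deposited table. PSMB9, encoding beta1i, was at 72.6, 83.0 and 106 FPKM in replicates 1, 2 and 3, a mean of 87.2 ± 17.1 (SD, n = 3). Its log2 fold change was 2.14 in the authors' deposited table, a level 4.40 times that in monolayer (adjusted p = 1.00e-44 in the authors' DESeq2 comparison). PSMB9 had the largest positive fold change of the 46 tested members. PSMB10, encoding beta2i, was at 76.8, 88.3 and 113 FPKM, a mean of 92.7 ± 18.5 (SD, n = 3). The authors' deposited table gave it a log2 fold change of 1.85, or 3.60 times (DESeq2 adjusted p = 1.08e-36). PSMB8, encoding beta5i, was at 67.1, 73.1 and 89.2 FPKM, a mean of 76.5 ± 11.4 (SD, n = 3). Its log2 fold change was 1.28 in the authors' deposited table, or 2.42 times (DESeq2 adjusted p = 4.26e-24). In every library the order was PSMB10, PSMB9, PSMB8, but the ranges of the 3 genes over libraries overlapped. If the deposited p-values are two-sided Wald p-values, the fold changes have standard errors of 0.15 for PSMB9, 0.14 for PSMB10 and 0.12 for PSMB8 on the log2 scale. PSMB8 overlaps the antisense gene PSMB8-AS1 in the RefSeq annotation, and since strandedness is not given, reads of the overlapping genes cannot be told apart.

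The constitutive counterparts of these genes differed between culture forms by small amounts, in both directions. PSMB6, encoding beta1, was at 117, 114 and 146 FPKM, and its log2 fold change was 0.35 in the authors' deposited table (DESeq2 adjusted p = 0.00783). PSMB7, encoding beta2, was at 194, 209 and 237 FPKM, and its log2 fold change was 0.27 in the authors' deposited table (DESeq2 adjusted p = 0.0220). PSMB5, encoding beta5 and the chymotrypsin-like activity that proteasome inhibitor drugs mainly target, was at 110, 102 and 120 FPKM. It alone of the 3 had a negative value, -0.27 in the authors' deposited table (DESeq2 adjusted p = 0.0188). None of these reached the minimum fold change, and in every library PSMB7 was above PSMB6 and PSMB6 above PSMB5.

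Within the spheroids the constitutive genes were the more abundant transcripts at each position. The level of PSMB9 was 0.622, 0.727 and 0.725 times that of PSMB6 in replicates 1, 2 and 3, a mean ratio of 0.691 ± 0.0598 (SD, n = 3). PSMB8 was at 0.608, 0.719 and 0.743 times PSMB5, a mean of 0.690 ± 0.0717 (SD, n = 3). PSMB10 was at 0.395, 0.423 and 0.476 times PSMB7, the lowest of the ratios, at 0.431 ± 0.0410 (SD, n = 3). All 3 libraries showed the same direction at all 3 positions, and the two-sided exact sign-flip permutation test gave p = 0.25 for each, the smallest value that 3 libraries allow. The immunoproteasome genes made up 33.9%, 36.5% and 38.0% of the summed FPKM of the 6 catalytic genes, a mean of 36.1% ± 2.03 (SD, n = 3). FPKM is scaled to transcript length, so these ratios compare transcripts and not proteins. Between culture forms the log2 fold changes of the authors' deposited table differed by 1.79 for PSMB9 against PSMB6, 1.57 for PSMB10 against PSMB7 and 1.55 for PSMB8 against PSMB5. The ratio of immunoproteasome to constitutive transcript was thus 3.45, 2.97 and 2.92 times that in monolayer, and these differences were not tested, since no single monolayer library was used.

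**Figure D2:**
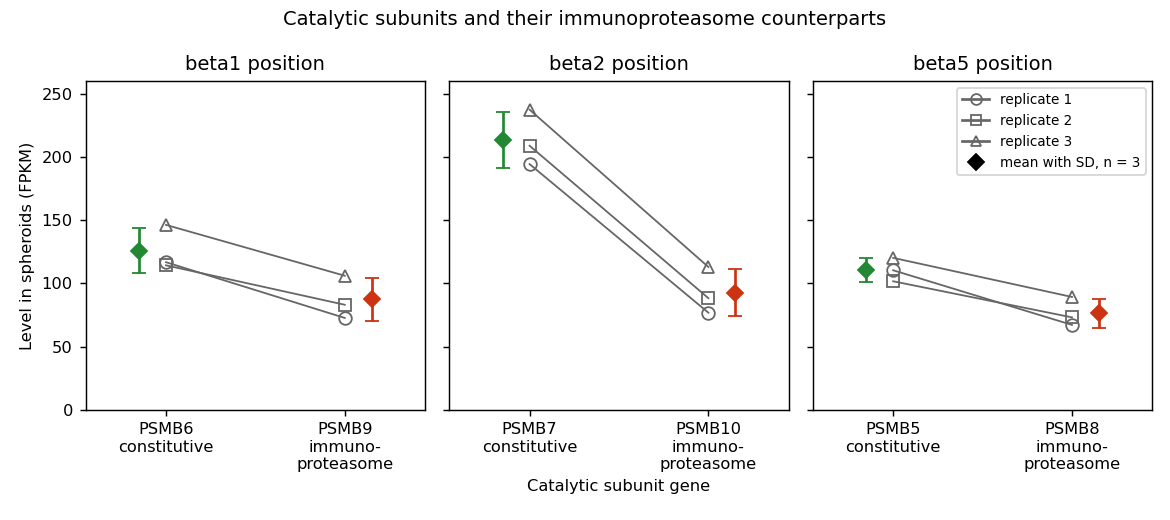
FPKM of each constitutive catalytic gene and its immunoproteasome counterpart in the 3 spheroid libraries, joined by library; diamonds with bars are the mean and SD (n = 3). Every line falls from the constitutive to the immunoproteasome gene, most steeply from PSMB7 to PSMB10.

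The activators differed widely in level and in fold change. PSME1, encoding PA28 alpha, was at 231, 239 and 286 FPKM, a mean of 252 ± 29.6 (SD, n = 3). Its log2 fold change was 1.00 in the authors' deposited table, or 2.01 times (DESeq2 adjusted p = 3.52e-22). That lies just past the minimum of 1: relative to the median of all tested genes it was 0.96, which does not reach it. PSME2, encoding PA28 beta, was the most abundant member, at 320, 328 and 389 FPKM, while its log2 fold change was only 0.32 in the authors' deposited table (DESeq2 adjusted p = 0.00417). PSME1 stood at 0.728 ± 0.00610 times the level of PSME2 (SD, n = 3), with hardly any spread between libraries. PSME2 has 6 pseudogenes named in RefSeq with which it may share reads, so its value is uncertain. PSME3, encoding the nuclear activator PA28 gamma, averaged 34.9 ± 2.53 FPKM (SD, n = 3) and stood at -0.29 in the authors' deposited table (DESeq2 adjusted p = 0.00433). PSME4, encoding the nuclear activator PA200, averaged 10.3 ± 1.50 FPKM (SD, n = 3), the lowest of the members above 0, and stood at -0.04 in the authors' deposited table (DESeq2 adjusted p = 0.830). PSMF1, encoding the regulator PI31, averaged 15.1 ± 0.758 FPKM (SD, n = 3) and stood at 0.16 in the authors' deposited table (DESeq2 adjusted p = 0.145).

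The alpha and structural beta genes of the core were not called: 0 of 11 passed the threshold, against 11.5% of all tested genes higher and 9.34% lower. By the adjusted p alone 1 was higher and none lower, against 26.0% and 24.5% of all tested genes. The median log2 fold change of the 11 was -0.03 in the authors' deposited table. The gene that passed the adjusted p alone was PSMA6, encoding alpha1, at 182, 193 and 235 FPKM, and its log2 fold change was 0.42 in the authors' deposited table (DESeq2 adjusted p = 0.000517). PSMA6 also overlaps a readthrough transcript in RefSeq, and 4 pseudogenes are named for it. Although the subunits of a core particle are present in equal numbers, the transcript levels of these 11 genes spanned 11.8-fold. PSMB4, encoding beta7, led with 249 ± 25.4 FPKM (SD, n = 3), and PSMB3, encoding beta3, followed with 211 ± 29.2 FPKM (SD, n = 3). PSMA5, encoding alpha5, was lowest at 21.1 ± 0.979 FPKM (SD, n = 3), below PSMB2, encoding beta4, at 30.5 ± 0.955 FPKM (SD, n = 3), and the libraries of both genes did not overlap. The members restricted to other tissues, PSMA8 of germ cells and PSMB11 of thymic epithelium, were listed at 0 in the 3 spheroid libraries and had no fold change.

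Most 19S genes lay slightly lower in spheroids. Of 17 ATPase and non-ATPase genes, the authors' deposited table had 15 with a fold change below 0 and 2 above. Judged by the adjusted p without a minimum fold change, 9 were lower and 0 higher in DESeq2, against 24.5% and 26.0% of all tested genes. None reached the minimum fold change, beside 9.34% of all tested genes called lower and 11.5% called higher. The median of the 17 was -0.23 in the authors' deposited table, which is 0.851 times the level in monolayer, beside 0.04 over all tested genes. PSMC3, encoding an ATPase of the base ring, was at 67.8, 63.8 and 77.4 FPKM, with the lowest value of the 17, -0.69 in the authors' deposited table (DESeq2 adjusted p = 9.24e-12). PSMD14, encoding the deubiquitinase that removes ubiquitin chains before degradation, was at 44.7, 45.4 and 53.6 FPKM and stood at -0.39 in the authors' deposited table (DESeq2 adjusted p = 0.00214). PSMD2, encoding a large scaffold of the base, was the most abundant of these 17 genes at 164, 158 and 160 FPKM, and its log2 fold change was -0.39 in the authors' deposited table (DESeq2 adjusted p = 1.50e-06). PSMD4, encoding a receptor for ubiquitin chains, was at 96.7, 94.9 and 116 FPKM and stood at 0.08 (DESeq2 adjusted p = 0.575), and PSMD8, of the lid, at 0.09 (DESeq2 adjusted p = 0.448), the only positive values of the 17 in the authors' deposited table. The means of the 17 genes ran from 14.9 FPKM for PSMD12, of the lid, to 161 FPKM for PSMD2. PSMC1, among the 9 lower by the adjusted p, has 13 pseudogenes named in RefSeq, the most of any member. It may share reads with them, so its value is uncertain.

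Assembly factors help to build the core and the 19S particle. The core chaperones PSMG1 to PSMG4 form pairs, PSMG1 with PSMG2 and PSMG3 with PSMG4, on which the alpha ring is put together. All 4 had a negative log2 fold change, and their median was -0.65 in the authors' deposited table. By the adjusted p alone 3 of the 4 were lower, against 24.5% of all tested genes. PSMG1 was at 24.1, 22.3 and 22.2 FPKM, a mean of 22.9 ± 1.07 (SD, n = 3). Its log2 fold change was -1.38 in the authors' deposited table (DESeq2 adjusted p = 2.13e-26), so that the monolayer level was 2.60 times as high. Its standard error is 0.13 if the deposited p is a Wald p. PSMG3 was at 33.9, 39.0 and 42.0 FPKM and lay just short of the minimum fold change, at -0.89 in the authors' deposited table (DESeq2 adjusted p = 8.05e-13). The partner of PSMG1, PSMG2, was at 49.9, 52.8 and 55.5 FPKM and its log2 fold change was -0.24 in the authors' deposited table (DESeq2 adjusted p = 0.0602). PSMG4, which carries the same GAAAGCGAA letters as PSMB10 in its promoter window, was at 17.8, 16.3 and 22.2 FPKM and stood at -0.42 in the authors' deposited table (DESeq2 adjusted p = 0.0129). The chaperones of the 19S base, PSMD5, PSMD9 and PSMD10, the last known as gankyrin, had values of 0.19, -0.04 and -0.06 in the authors' deposited table. Of these, 0 of 3 passed the adjusted p, against 26.0% of all tested genes higher and 24.5% lower.

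**Figure D3:**
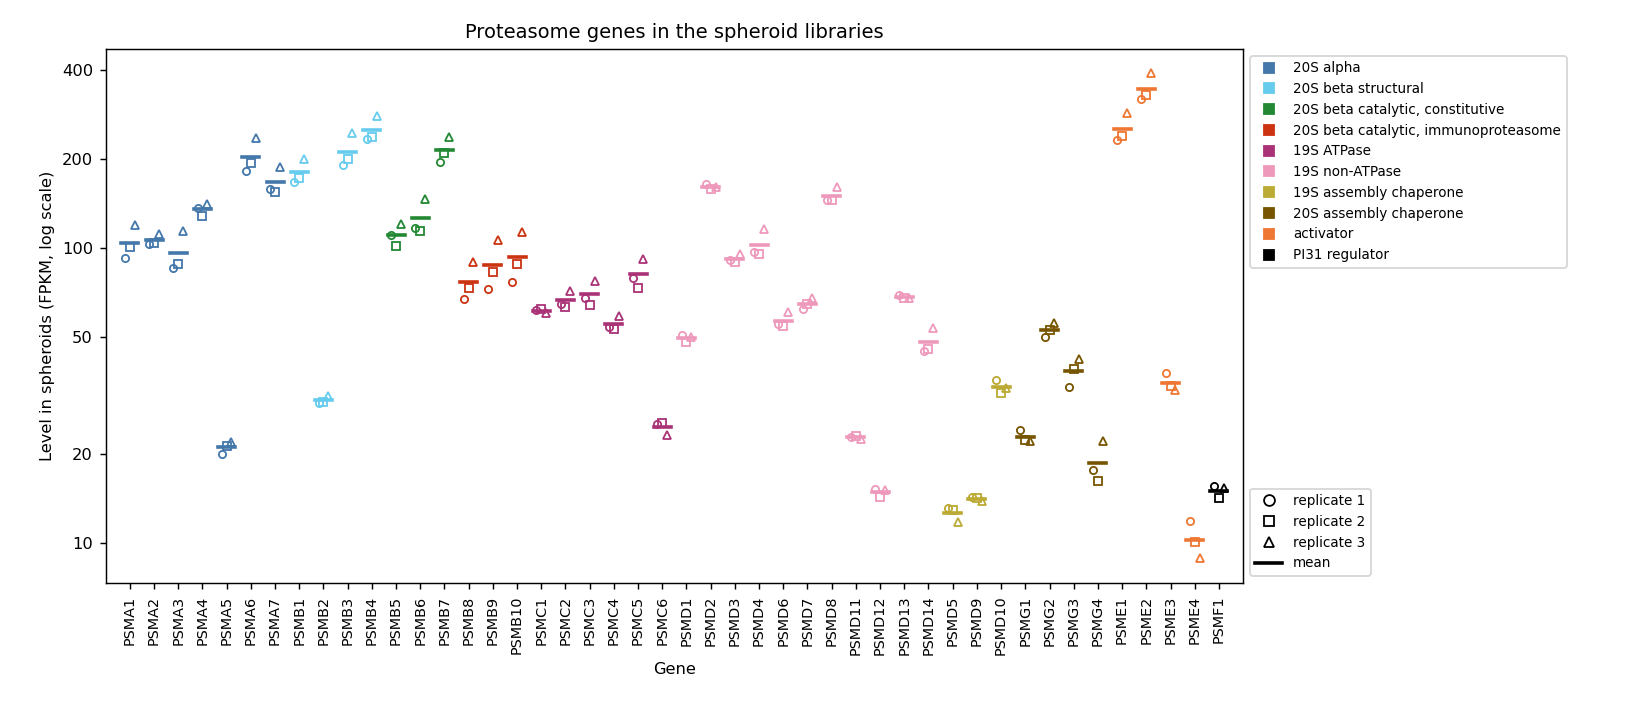
FPKM (log scale) of the 46 proteasome genes above 0 in the 3 spheroid libraries, grouped and coloured by role; symbols mark replicates and bars the mean. PSME2 is highest and PSME4 lowest; replicate 3 tops the alpha, beta and immunoproteasome genes, and the libraries of most 19S non-ATPase genes lie close together.

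Replicate 3 stood above the others for the core genes and for several other members. It was the highest library for 32 of the 46 members above 0, among them 17 of 17 alpha, beta and immunoproteasome genes, against 41.2% of the 12410 genes that averaged 1 FPKM or more. The median ratio of replicate 3 to the mean of replicates 1 and 2 was 1.36 for the catalytic immunoproteasome genes, 1.18 for the structural beta and 1.18 for the constitutive catalytic genes. The ratios of the 7 alpha genes ran from 1.06 for PSMA4 to 1.31 for PSMA3. The median ratio was 1.11 for the 19S ATPase genes and 1.12 for the core assembly chaperones, and PSME1 and PSME2 stood at 1.216 and 1.201. It was 1.05 for the 19S non-ATPase genes, 0.976 for the 19S chaperones and 1.01 over the 12410 genes. FPKM sums were 571705, 581522 and 623496 in replicates 1, 2 and 3. After rescaling each library to the same sum, the summed immunoproteasome level in replicate 3 was 1.24 times the mean of the other libraries, and that of the alpha genes 1.10 times. The spread of PSMB9 and PSMB10 was accordingly wide, with coefficients of variation of 19.6% and 19.9%, against a median of 7.02% over the members and 8.37% over the 12410 genes.

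Of 11 genes that regulate the immunoproteasome or supply peptides to MHC class I, 6 were called higher and 0 lower, against 11.5% and 9.34% of all tested genes, and their median log2 fold change was 1.22 in the authors' deposited table. IRF1, encoding an interferon-induced transcription factor, was at 44.8, 53.0 and 49.0 FPKM and stood at 2.10 in the authors' deposited table (DESeq2 adjusted p = 1.72e-79). TAP1, the transporter gene next to PSMB9, was at 118, 132 and 140 FPKM and stood at 1.76 in the authors' deposited table (DESeq2 adjusted p = 2.65e-56). TAP2, encoding the partner of TAP1 in the transporter, was at 42.0, 41.4 and 38.2 FPKM and stood at 0.13 in the authors' deposited table, where it did not pass the adjusted p (DESeq2, 0.286). B2M, the light chain of MHC class I, was at 2342, 2540 and 2857 FPKM and stood at 1.70 in the authors' deposited table (DESeq2 adjusted p = 9.50e-79). NLRC5, a transactivator of MHC class I genes, averaged 20.6 ± 2.49 FPKM (SD, n = 3) and lay just short of the minimum, at 0.99 in the authors' deposited table (DESeq2 adjusted p = 4.11e-21).

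Proteasome partners that carry other names were read in the same comparison. Of 21 such genes, 1 was called higher (4.76%, against 11.5% of all tested genes) and 0 lower (against 9.34%), and their median log2 fold change was 0.06 in the authors' deposited table. By the adjusted p alone, 6 were higher (28.6%) and 5 lower (23.8%), shares near the 26.0% and 24.5% of all tested genes. The called gene was ZFAND5, a proteasome-binding zinc finger protein, at 1.03 in the authors' deposited table (DESeq2 adjusted p = 3.15e-33), which became 0.99 relative to the median of all tested genes. NFE2L1, encoding NRF1, which induces proteasome genes when proteasome activity is lost, was at 143, 140 and 123 FPKM and stood at 0.70 in the authors' deposited table (DESeq2 adjusted p = 2.07e-13). ADRM1, a ubiquitin receptor of the 19S particle, averaged 141 ± 12.6 FPKM (SD, n = 3) and stood at -0.32 in the authors' deposited table (DESeq2 adjusted p = 0.00572). SEM1, the smallest 19S subunit, and POMP, the chaperone that matures the beta ring, had values of 0.05 (DESeq2 adjusted p = 0.814) and 0.07 (DESeq2 adjusted p = 0.638) in the authors' deposited table. UCHL5 and USP14, the deubiquitinases bound to the 19S particle, were chosen after their values were seen, and had values of -0.78 and -0.67 in the authors' deposited table (DESeq2 adjusted p = 7.12e-08 and 1.25e-11). The rest that passed the adjusted p alone are also named after their values were seen. UBQLN2 (0.76), ZFAND2A (0.66), NGLY1 (0.59) and TXNL1 (0.22) were higher and VCP (-0.40) and UBQLN4 (-0.30) lower, as log2 fold changes of the authors' deposited table. Of 6 genes of ubiquitin and its activation, 0 were called in either direction, against 11.5% of all tested genes higher and 9.34% lower. The adjusted p of DESeq2 by itself put 3 higher (50%, against 26.0% of all tested genes) and 1 lower (16.7%, against 24.5%). Among these, and chosen after their values were seen, were the ubiquitin gene UBB at 0.31, the activating enzyme gene UBA6 at 0.67 and RPS27A, a ubiquitin fusion gene, at -0.33, each from the authors' deposited table.

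**Figure D4:**
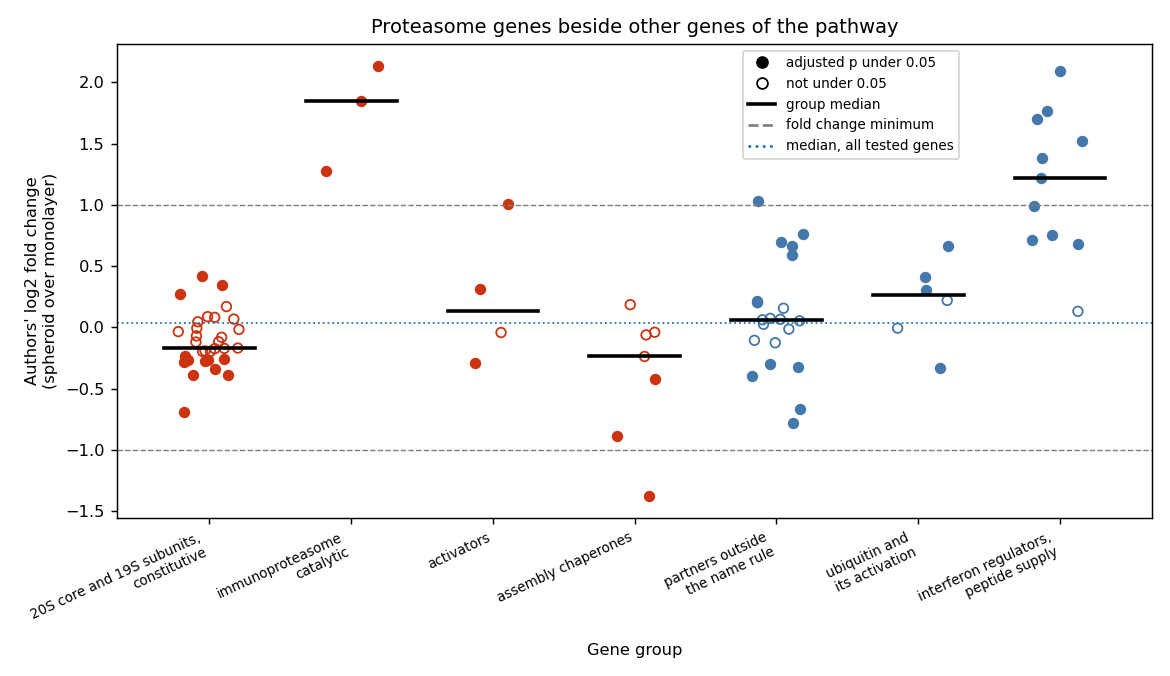
Log2 fold changes (spheroid over monolayer) from the authors' deposited table for proteasome genes by role (red) and for the fixed lists of other pathway genes (blue), with black bars at each group's median. Filled points have an adjusted p under 0.05; the immunoproteasome genes, with a median of 1.85, and the interferon and peptide supply genes, with a median of 1.22, are the plotted groups whose median lies above the dashed line at 1. The leukocyte markers, with a median of 1.49 that rests on genes under 1 FPKM, are not plotted.

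In bulk RNA, a larger share of cells with the immunoproteasome and more of its RNA per cell cannot be told apart. Immune cells carry the immunoproteasome as their usual form, so their markers were read in the same libraries. Of 14 leukocyte markers, 9 averaged under 1 FPKM and none was at 0 in all 3 libraries. PTPRC, the pan-leukocyte marker CD45, was at 0, 0.01 and 0.06 FPKM, and the monocyte marker CD14 at 0.23, 0.17 and 0.48. CD68, a lysosomal glycoprotein gene, was at 705, 742 and 660 FPKM and made up most of the summed marker level of 746, 782 and 707 FPKM, and the T-cell receptor complex gene CD3D was at 31.3, 30.2 and 36.4 FPKM. Of the 14 markers, 5 were called higher (35.7%, against 11.5% of all tested genes) and 0 lower in the authors' deposited table. They were CD68 at 2.16 and CD3D at 1.88, with CD3E at 2.14 (mean 1.09 FPKM), ITGAM at 1.86 (mean 0.35 FPKM) and CD163 at 2.58 (mean 0.30 FPKM), named after their values were seen. The median log2 fold change of the 14 was 1.49 in the authors' deposited table, but it rests on genes near the floor. It lay between CD79A at 1.36 (mean 0.33 FPKM) and MS4A1 at 1.61 (mean 0.013 FPKM), also named after their values were seen. Neither of these passed the adjusted p of DESeq2. CSF1R, a macrophage growth factor receptor gene, averaged 6.27 FPKM and stood at 0.94 in the authors' deposited table (DESeq2 adjusted p = 7.22e-10). The markers' part in the immunoproteasome result was not tested.

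Across all tested genes with a promoter window, 18.0% of the 1323 with GAAANNGAA were called higher, against 10.5% of the 12965 without it. For the gamma-activated site the shares were 14.5% and 10.8%, and for the antioxidant response element core 11.63% and 11.04%. Of the 8 members with GAAANNGAA shown above, PSMB10, PSMB8 and PSME1 were called higher and PSME2 was higher by the adjusted p alone, while PSMB4, PSMC2 and PSMA4 passed neither rule, and PSMG4 was lower by the adjusted p alone. PSMB9, with the highest fold change, had no match in its window.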

How the data were processed

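RNA sequencing of 3 spheroid samples of 1 labelled group was used. The submitters' processing notes name Bowtie2 2.2.5, RSEM 1.2.12, DESeq2 1.4.5 and GRCh38.p13, with no roles. The authors deposited FPKM per library, and the log2 fold change, p-value and adjusted p-value (q-value) of their DESeq2 comparison, per the file headers. A Benjamini-Hochberg adjustment of these p-values over all 18467 tested genes gave the deposited q-values to within 1.3e-15. Of 358 genes at 0 in the spheroid libraries, 356 had a negative fold change, which gives its direction. The table has 3 further columns of single libraries that match no listed sample, which were not used, so the comparison was not fitted again. Read depth is unknown, and no counting interval is given.

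Calls used an adjusted p under 0.05 and a log2 fold change of 1 or more in size. Standard errors are the fold change over the normal deviate of the p-value. Levels are means and SD of FPKM. Members and lists were chosen with earlier results of these data known; all members may be named, and of each list fixed genes and up to 3 called ones with the largest change. Calling, adjustment and motif search were tested on simulated data. RefSeq names 52 pseudogenes for 21 of the members, none listed in the table, and 6 members overlap another listed gene, so reads may be shared. Protein sequences were not used here, and the values of some listed genes are not reported here. The settings varied were the adjusted p (under 0.01), the minimum fold change (none, or 2), centred fold changes, members of at least 1 FPKM, each replicate left out, median-ratio scaling, libraries rescaled to a sum of 1000000, pseudocounts of 1 and 0.1, and promoter windows ending at the start. Computation used SciPy 1.17.1, pandas 2.3.3 and NumPy 2.4.6 under Python 3.11.15, with figures from matplotlib 3.10.9.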

Additional observations from a re-analysis of the deposited data

How the results depend on the processing

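Without a minimum fold change, 8 members were higher and 14 lower; with a minimum of 2 on the log2 scale, 1 (PSMB9) was higher and 0 lower. With fold changes centred on the median of all tested genes, PSME1 (0.96) was no longer called, and the other 4 calls held. All 5 calls held at an adjusted p under 0.01. Leaving out each replicate gave mean ratios of 0.674 to 0.726 for PSMB9 to PSMB6, 0.409 to 0.449 for PSMB10 to PSMB7 and 0.664 to 0.731 for PSMB8 to PSMB5. With promoter windows that end at the start, 5 members held GAAANNGAA, since the matches of PSMB8, PSMC2 and PSME1 reach past the start. Rescaling each library to a sum of 1000000 raised the summed level of all 10 classes above 0, by construction. No level of a single member moved by as much as its SD under median-ratio scaling or either pseudocount. The scale factors were 1.004, 0.995 and 1.006 in replicates 1, 2 and 3, too near 1 to move a mean far. Pseudocounts of 1 or 0.1 are small beside members that averaged 10.3 FPKM or more. These settings therefore say little about the stability of the levels. Leaving out 1 of 3 libraries cannot move a mean by its SD, so it says nothing about the stability of the levels. The authors' comparison could not be fitted without single libraries. No paired analysis was possible because the listed samples form 1 group. The planned comparison of proteins was not run, because no protein sequences were used here.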

Other observations

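Genes whose symbols begin like those of the proteasome but that encode no subunit were left out by the name rule. PSMC3IP, encoding a cofactor of homologous recombination, averaged 1.75 ± 0.176 FPKM (SD, n = 3) and stood at -3.26 in the authors' deposited table (DESeq2 adjusted p = 6.99e-50). PSME3IP1, encoding a protein that binds the nuclear activator PA28 gamma, averaged 26.0 ± 0.187 FPKM (SD, n = 3) and stood at -0.26 in the authors' deposited table (DESeq2 adjusted p = 0.0111).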
